A study of Mus musculus with 2 samples.

Results

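The miR-344 family is a set of microRNA (miRNA) genes strung along chromosome 7 of the mouse, and its level was read here in the left cerebral cortex of aged mice. Its 10 members, Mir344d-1, Mir344d-2, Mir344d-3, Mir344e, Mir344b, Mir344c, Mir344, Mir344g, Mir344f and Mir344i, were found by their gene symbols among the 2202 miRNA genes of the deposited tables. The family was selected partly on measured values, because Mir344d-3 differed between the 2 libraries. Levels and differences between the libraries are therefore given as a description and were not tested. The annotation holds 3 further genes of this name, Mir344h-1, Mir344h-2 and Mir344-2, which are not among the members and were used for comparison.

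Both libraries came from B6CASTF1/J mice, the first-generation cross of C57BL/6J and CAST/EiJ, at an age of 18 to 20 months, and both were made from RNA of under 30 nt. They form 1 group of 2 biological replicates with no treatment, and no second condition was measured. The labels tie both tissue samples to a single donor record, so separate animals cannot be assumed, and what separates one library from the other may be technical. The labels also disagree on sex (male in the sample fields, female in the free text), which was not used. Replicate 1 held 2381663 reads on the strand of a miRNA gene and replicate 2 held 4436398. Levels are given as CPM, the reads of a gene scaled by the library's total of such reads, so 1 read was worth 0.420 CPM in replicate 1 and 0.225 CPM in replicate 2. For a gene without a read, a limit of 3 reads leaves room for 1.26 CPM in the first and 0.676 CPM in the second. All such limits, and the intervals below, reflect counting alone, because reads copied by amplification are not independent molecules. As a check of the tissue, the listed neuronal miRNAs summed to 90297 and 71445 CPM, of which Mir132 made up 69646 and 43349 CPM. Mir122, the hepatocyte miRNA, stood at 58.4 and 75.96 CPM. The 3 loci of neuronal miR-124 stood at only 0 to 4 reads. Of the 6 listed miRNA genes of muscle, Mir1a-1, Mir133a-1 and Mir133a-2 had no read, and Mir1a-2 had 0 and 1. Mir208a had 1 and 3 reads, and Mir206 had 34 and 84. The miRNAs miR-124, miR-1a and miR-133a have several gene copies, and whether that lowered their counts was not tested. Mir128-1 and Mir128-2, copies of another neuronal miRNA, had 34186 and 6834 reads in replicate 1, and 84575 and 14131 in replicate 2.

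A miRNA is cut from a hairpin transcript by Drosha and then Dicer, and either arm of the hairpin can be loaded into an Argonaute protein. Bases 2 to 8 of the mature strand, the seed, do most of the pairing with target messages. miR-344 was first described in rat cortical neurons and is known as a rodent family. Its genes lie next to the imprinted domain of Ndn, Magel2, Mkrn3 and Peg12, genes expressed from the paternal chromosome. In bulk tissue, fewer cells that express a miRNA and less RNA per cell cannot be told apart.

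The mature sequences show what the members have in common and where they part. They are RefSeq sequences (GRCm38.p6), all 10 members were matched, and the seed is in capitals. The 3p arms come first, and miR-344d-3p is encoded by 3 members at once.
miR-344-3p: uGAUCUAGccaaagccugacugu
miR-344c-3p: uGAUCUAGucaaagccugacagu
miR-344b-3p: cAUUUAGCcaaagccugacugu
miR-344d-3p: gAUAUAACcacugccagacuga
miR-344e-3p: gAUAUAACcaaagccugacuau
miR-344g-3p: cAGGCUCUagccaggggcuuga
miR-344f-3p: cUCUAGCCaggaccugacuac

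These 3p arms carry 5 different seeds. Mir344 and Mir344c had the seed GAUCUAG in common, and Mir344d-1, Mir344d-2, Mir344d-3 and Mir344e had AUAUAAC. Mir344b, Mir344g and Mir344f each had a 3p seed found at no other member. Outside the family, AUAUAAC is also the seed of miR-410-3p, a product of the imprinted Dlk1-Dio3 cluster on chromosome 12, and its bases after the seed differ from those of the family. The seed of miR-344g-3p is also that of miR-7070-3p.
miR-410-3p: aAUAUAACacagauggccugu

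The 5p arms were more alike. The seed GUCAGGC was carried by 6 members, Mir344, Mir344b, Mir344c, Mir344d-1, Mir344d-3 and Mir344g, and by no miRNA of the RefSeq table outside the Mir344 genes. The 5p arms of the miR-344d genes are shown because, unlike their common 3p arm, each belongs to 1 gene. The arms of Mir344b, the most abundant member, and of Mir344i, whose single annotated arm starts 1 base earlier than the others, are given with them.
miR-344d-1-5p: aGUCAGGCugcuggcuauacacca
miR-344d-2-5p: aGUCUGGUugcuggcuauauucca
miR-344d-3-5p: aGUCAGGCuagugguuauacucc
miR-344b-5p: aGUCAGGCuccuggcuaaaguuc
miR-344i: aAGUCAGGcuccuggcugga

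Mir344b carried most of the reads of the family. It had 99 reads in replicate 1 and 274 in replicate 2, which was 41.6 CPM (95% exact Poisson interval 33.8 to 50.6) and 61.8 CPM (54.7 to 69.5). Its mean of 51.7 ± 14.3 CPM (SD, n = 2) placed it at rank 229 of the 2202 genes. The hairpin of Mir344b (ENSMUSG00000092921.1) lies at chr7:61790519-61790581 on the minus strand of mm10, in an intron of the noncoding gene A230057D06Rik. Its 63 bases are printed with the arms in capitals.
Mir344b hairpin: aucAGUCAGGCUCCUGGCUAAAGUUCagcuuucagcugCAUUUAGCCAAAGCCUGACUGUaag

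Mir344g came next, well below Mir344b. It had 22 and 16 reads, or 9.24 CPM (95% exact Poisson interval 5.79 to 13.99) and 3.61 CPM (2.06 to 5.86), with a mean of 6.42 ± 3.98 CPM (SD, n = 2). The values of Mir344b and Mir344g did not overlap, and the mean of Mir344b was 8.05 times that of Mir344g. Mir344g (ENSMUSG00000092850.1, chr7:61982289-61982359, minus strand) overlaps an exon of A330076H08Rik, a processed transcript, and 1 of its 71 bases lies outside that gene.

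Below Mir344g the reads became too few to order the loci. Mir344d-3 had 10 reads in replicate 1 and 1 in replicate 2, which was 4.20 and 0.225 CPM, with a mean of 2.21 ± 2.81 CPM (SD, n = 2). Mir344f had 7 and 5 reads, at 2.94 and 1.13 CPM, with a mean of 2.03 ± 1.28 CPM (SD, n = 2). Mir344c had 3 reads in each library, at 1.26 and 0.676 CPM, with a mean of 0.968 ± 0.413 CPM (SD, n = 2). In this order the values of each locus overlapped those of its neighbours from Mir344g downwards. Of the steps between neighbours, only that from Mir344b to Mir344g exceeded the spread between the libraries. Within each library Mir344g still stood above Mir344d-3, Mir344f and Mir344c, an order that was not tested. Among all 728 genes with a read the median of the mean level was 4.60 CPM, between Mir344g and Mir344d-3.

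The other members, Mir344d-1, Mir344d-2, Mir344e, Mir344 and Mir344i, had no read in either library. At this depth a level below the limits given above could have gone without a read. Those limits do not cover reads that map to several places, which stand under no gene. Thus 5 of 10 members had a read in both libraries, against 26.3% of the 2202 genes, and 2 of 10, Mir344b and Mir344g, had at least 10 reads in each, against 16.7%. Mir344h-1, Mir344h-2 and Mir344-2 had no read either. The gene that gave the family its name was therefore listed at 0 under both of its annotated copies, Mir344 and Mir344-2.

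**Figure D1:**
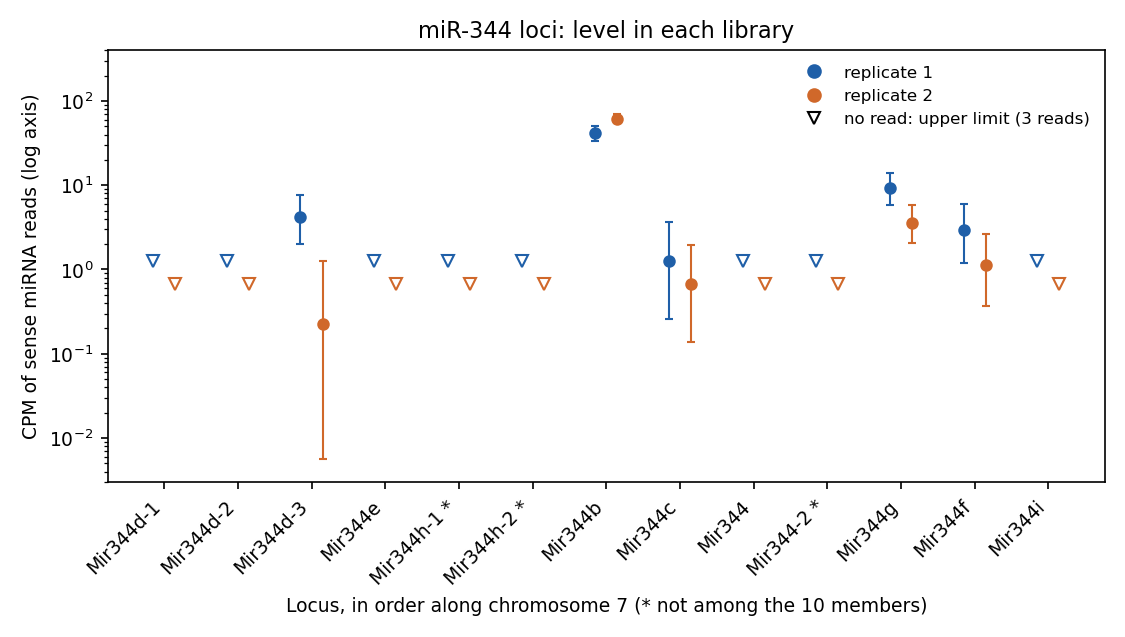
Level of each miR-344 locus in replicate 1 (blue) and replicate 2 (orange), in CPM on a log axis, in order along chromosome 7. Points carry 95% exact Poisson intervals, triangles mark the limit of 3 reads for loci without a read, and Mir344b stands above the rest at 41.6 and 61.8 CPM.

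Summed over the 10 members, the family had 141 reads in replicate 1 and 299 in replicate 2. That was 59.2 CPM (95% exact Poisson interval 49.8 to 69.8) and 67.4 CPM (59.97 to 75.5), a mean of 63.3 ± 5.79 CPM (SD, n = 2). The share of Mir344b in the family was 70.2% in replicate 1, with an exact binomial 95% interval of 61.9 to 77.6. In replicate 2 it was 91.6%, with an interval of 87.9 to 94.5. All members but Mir344b together reached 17.6 CPM in the first library and 5.64 CPM in the second. The intervals of the family sum overlapped between the libraries, and those of the Mir344b share did not. Both reflect counting alone, and Mir344d-3, on which the family was partly chosen, is part of the sums, so no difference was tested. Mir410, whose 3p arm has the seed of the miR-344d and miR-344e arms, was counted at 229 and 89.9 CPM, a mean of 159 ± 98.2 CPM (SD, n = 2). That mean was 2.52 times the mean of the whole miR-344 family, which was mostly Mir344b, a locus with other seeds. Of the members with the seed of miR-410-3p, only Mir344d-3 had reads. Counts per hairpin also do not give the level of an arm. Mir7070, with the seed of miR-344g-3p, had 2 and 15 reads.

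The members lie on the minus strand within 402.2 kb, from chr7:61683124 to 62085310, and the last of them ends 261.3 kb before Ndn. From low to high coordinate, Mir344d-1 (chr7:61683124-61683192) and Mir344d-2 (chr7:61685272-61685351) overlap no longer gene on their strand. Mir344d-3 (chr7:61726249-61726328), Mir344e (chr7:61735537-61735602), Mir344b, Mir344c (chr7:61837311-61837402) and Mir344 (chr7:61877770-61877864) lie in introns of A230057D06Rik, a long intergenic noncoding RNA. Mir344f (chr7:62046181-62046248) and Mir344i (chr7:62085223-62085310) again have no longer gene around them. Loci with reads and loci without them were interspersed along the cluster. Within A230057D06Rik alone, Mir344d-3, Mir344b and Mir344c had reads, and Mir344e and Mir344 had none.

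Within 1 Mb on either side the annotation lists 10 further miRNA genes, namely the 3 other Mir344 genes and 7 without a family name. None of the 10 had a read in both libraries. Gm23873 had 2 reads and Gm24923 had 1, all in replicate 2. The 7 unnamed hairpins resemble the family closely. Their best match to a Mir344 hairpin ranged from 86.4% identity for Gm25533 with Mir344e to 96.6% for Gm24923 with Mir344i.

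**Figure D2:**
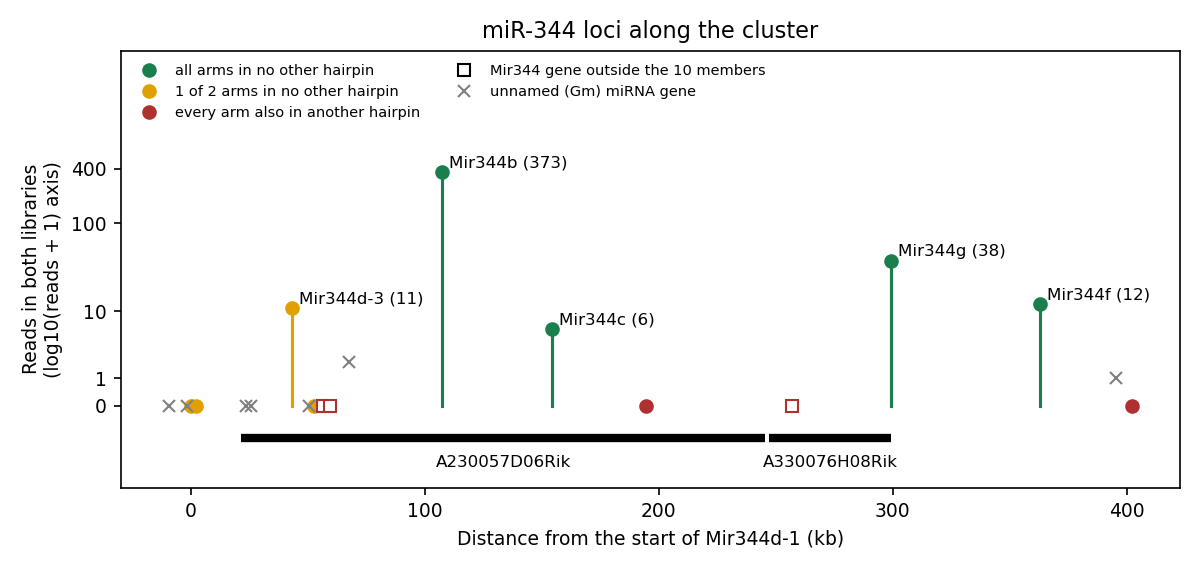
Reads of each miR-344 locus over both libraries, on a log10(reads + 1) axis, against its distance in kb from the start of Mir344d-1; black bars are the longer noncoding genes A230057D06Rik and A330076H08Rik. Colours give how many mature arms occur in no other miRNA hairpin. All loci with every arm of their own (Mir344b, Mir344c, Mir344g and Mir344f) had reads, and the loci with no arm of their own had none. Because reads of a recurring arm stand under no gene, the lack of reads at those loci cannot show their level.

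Hairpins near each other on the chromosome tended to be alike in sequence. Aligned over the part that both hairpins of a pair cover, Mir344d-1, Mir344d-2, Mir344d-3 and Mir344e were 84.8% to 92.8% identical over their 6 pairs. Mir344g, Mir344f and Mir344i, at the other end of the cluster, were 88.4% to 89.7% identical. Mir344b, Mir344c and Mir344, in the middle, were 78.3% to 82.1% identical. The 33 pairs that cross these sets ranged from 63.4% to 82.4%, with a median of 70.4%. The sets were drawn after the sequences had been compared, and identities of pairs with a common hairpin are not independent. Adjacent members had a median identity of 84.8% over 9 pairs and all other pairs one of 70.5% over 36 pairs. Among the 3 genes outside the members, Mir344h-1 and Mir344h-2 were 100% identical, and Mir344-2 was 95.1% identical to Mir344.

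**Figure D3:**
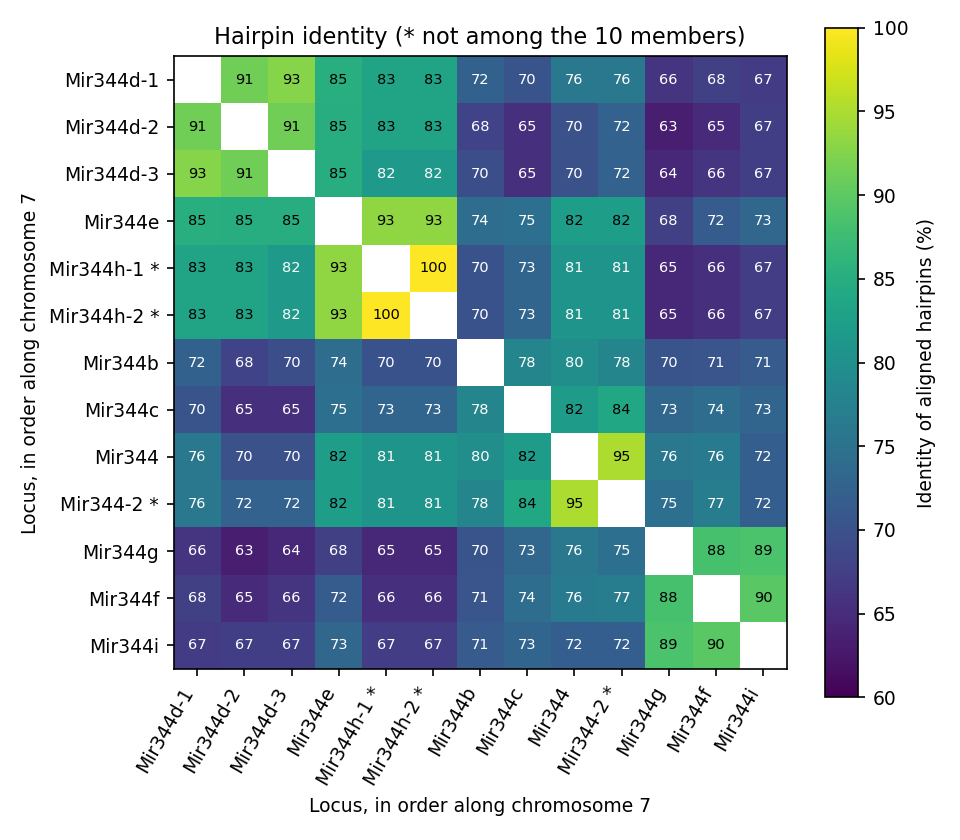
Percent identity of each pair of Mir344 hairpins after alignment with free end gaps, with loci in order along chromosome 7 on both axes. Blocks of high identity lie along the diagonal: the miR-344d genes with Mir344e, at 84.8% or more, and Mir344g with Mir344f and Mir344i, at 88.4% or more.

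This likeness bears on what a count can hold. In the deposited tables a read that maps to several places stands on a line of its own and under no gene, and that line held 35.6% of all reads in replicate 1 and 44.8% in replicate 2. How many of these reads came from miR-344 loci was not tested. Of the 10 members, 9 had a stretch of 20 bases in common with another annotated miRNA hairpin, and Mir344c did not. The mature arms give a finer view, since reads of under 30 nt are about as long as an arm.

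Every member whose annotated arms all occur in no other hairpin had reads, namely Mir344b, Mir344c, Mir344g and Mir344f, which were 4 of 4. Mir344d-1, Mir344d-2, Mir344d-3 and Mir344e each have 1 arm of their own and 1 held in common, and 1 of these 4, Mir344d-3, had reads. Mir344 and Mir344i have no arm of their own, and neither had a read. Both arms of Mir344 recur in Mir344-2, and the arm of Mir344i recurs in Gm24923. Reads with exactly the sequence of such an arm map to several places and stand under no gene. The lack of reads at Mir344 and Mir344i therefore cannot show their level. Whether recurring arms account for the members without reads was not tested. The 3p arm of the miR-344d genes is found in 5 hairpins in all, those of Mir344d-1, Mir344d-2, Mir344d-3, Gm23490 and Gm23962, and in a transcript of A230057D06Rik. A read with exactly the sequence of miR-344d-3p therefore matches more than 1 gene. From the end of the 5p arm to the last base, the hairpins of Mir344d-2 and Mir344d-3 are identical. A read that tells Mir344d-3 from Mir344d-2 must therefore cover its 5p side. A count per hairpin does not show where the reads lay, and this was not tested.

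Mir344d-3 differs from its nearest relatives in that 5p arm. Its arm miR-344d-3-5p matched no other miRNA hairpin even with 2 mismatches allowed. With the same allowance, miR-344d-1-5p matched Gm23873 and Gm23962, and miR-344d-2-5p matched Gm23873 and Gm25533. The whole hairpin, 80 bases long, is shown with its arms in capitals.
Mir344d-3 hairpin: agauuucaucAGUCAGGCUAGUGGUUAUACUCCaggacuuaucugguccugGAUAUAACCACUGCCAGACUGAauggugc

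With 2 mismatches allowed, 4 of the 5 members with reads still had an arm of their own, the exception being Mir344f. Of the 5 members without reads, 1 did, Mir344e, whose arm miR-344e-3p matched no other hairpin. Its hairpin as a whole was 93.3% identical to those of Mir344h-1 and Mir344h-2. Over the other miRNA genes that matched the RefSeq table, the same classes were read in both libraries as follows. It was 51.6% of 864 genes with all arms of their own, 73.2% of 56 genes with some, and 30.6% of 85 genes with none. In that wider set the genes with some arms of their own were read most often, unlike among the 10 members, whose counts are too small for a comparison of the classes.

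The difference between the libraries, the contrast on which the family was chosen, was largest at Mir344d-3. Ratios were scaled by TMM effective library sizes (edgeR), with replicate 1 over replicate 2, and had no replicate check. Mir344d-3, with its 10 reads against 1, had a fold of 19.0 with a counting interval of 2.70 to 824. Mir344g was 2.61 times as high in replicate 1 (1.31 to 5.32), and Mir344f 2.66 times (0.726 to 10.6). Mir344b lay the other way, at 0.686 times (0.540 to 0.866), and Mir344c had a fold of 1.90 (0.254 to 14.2). Of the 4 members with at least 10 reads over both libraries, 3 were at least 2-fold apart, all higher in replicate 1. This count is no support for a difference. Mir344d-3, 1 of the 3, was used to choose the family and passed the minimum only through replicate 1. Mir344d-3 and Mir344f had only 11 and 12 reads in total. Among all 472 genes with at least 10 reads over both libraries, 19.3% were 2-fold apart in either direction. By that much, 10.6% were higher in replicate 1. With all reads of a library as the denominator, the median log2 ratio of these genes moved from -0.07 to -0.39, and 26.7% in place of 54.9% of the genes 2-fold apart were higher in replicate 1. The members kept their directions there. With a prior count of 0.5 reads, which the folds above lack, the log2 ratio of Mir344d-3 was 3.30 in place of 3.57. It was 1.04 in place of 1.35 for Mir344g, 1.01 in place of 1.30 for Mir344f and -0.86 in place of -0.54 for Mir344b. The libraries also differed in other respects, whose part in the differences of the family was not tested. Unmapped reads made up 30.8% of replicate 1 and 14.6% of replicate 2. The listed miRNAs of mural cells summed to 10855 and 5719 CPM, and those of erythroid cells to 97.8 and 67.4 CPM. For oligodendrocytes the sums were 4684 and 3502 CPM, for astrocytes 37188 and 44940 CPM, and neuronal ones differed as given above. Within these lists, apart from that of mural cells, the members did not all go the same way. Of the neuronal ones, Mir132 was lower in replicate 2, and Mir128-1, Mir128-2, Mir138-1 and Mir138-2 were higher. For oligodendrocytes, Mir338 was lower (3079 and 1778 CPM), and Mir219a-1 and Mir219a-2 were higher. Among the astrocyte miRNAs, Mir26b was lower (8607 and 7066 CPM), and Mir23a and Mir29a were higher. Of the erythroid ones, Mir451a (49.97 and 22.5 CPM) and Mir144 were lower, and Mir486 hardly moved (27.3 and 27.5 CPM). The sums were closer for endothelium (17007 and 18138 CPM) and choroid plexus (702 and 610 CPM). They were also closer for myeloid and lymphoid cells (1868 and 1830 CPM), where Mir142 was lower and Mir150 higher.

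**Figure D4:**
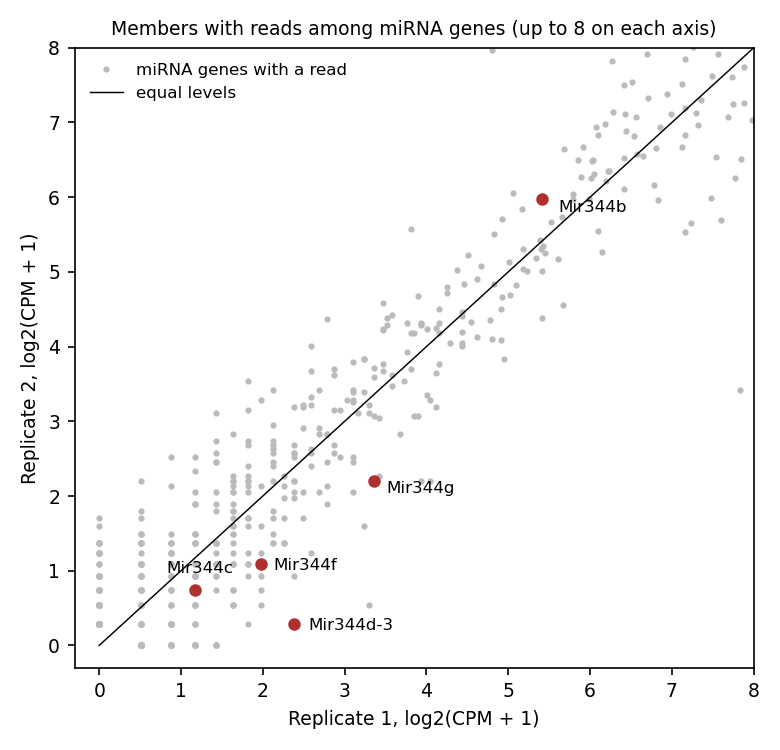
Level in replicate 1 against replicate 2, both as log2(CPM + 1) and shown up to 8 on each axis, for miRNA genes with a read (grey) and the 5 members with reads (red). Mir344b lies just above the line of equal levels, and Mir344d-3, Mir344g, Mir344f and Mir344c lie below it.

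With 2 libraries, likeness of pattern means little more than likeness of level. By Euclidean distance in log2(CPM + 1) over these 2 values, the genes nearest to Mir344b were Mir539, of the Dlk1-Dio3 cluster, at a distance of 0.28 with 83 and 251 reads, and Mir152 at 0.32 with 107 and 221 reads. Nearest to Mir344d-3 were Mir7010 at 0.47 with 7 and 2 reads, and Mir511 at 0.56 with 6 and 1 reads.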

How the data were processed

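Small RNA of the left cerebral cortex was sequenced in 2 libraries. Each library has a deposited table of raw read counts per miRNA gene. Notes deposited with the tables name mm10 as build and M21 as GENCODE release. The aligner is not given in the sources used. Counts on a gene's own strand were used, and 4 leading lines (unmapped, multimapping, no-feature and ambiguous reads) were kept out of library totals. The 10 members and the lists were chosen with earlier results of these data known. Named besides the members are all other Mir344 genes, miRNA genes within 1 Mb that have a read in both libraries, and the 2 genes nearest in level to Mir344b and Mir344d-3; Gm genes in that window, Mir410 and Mir7070 were added after their values were seen.

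CPM used the sense reads at miRNA genes as total. Ratios used TMM factors from edgeR 4.0.16 (R 4.3.3), 0.990 and 1.01, from genes with at least 10 reads, and a prior count of 0.5 reads where log2 values or the 2-fold limit are given; folds with exact binomial counting intervals have no prior. The ratio was tested on simulated data. With 1 group, no quasi-likelihood test exists. Mature sequences came from RefSeq (GRCm38.p6) and hairpins from GENCODE M21 transcripts. Arms and words of 20 bases were searched on both strands of the 2202 annotated hairpins, so copies elsewhere in the genome were not searched. Hairpins were aligned with Biopython 1.88 (match 1, mismatch -1, gap opening -2, gap extension -0.5, free end gaps), and folded with ViennaRNA 2.7.2. Python 3.11.15 with scipy 1.17.1 was used.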

Additional observations from a re-analysis of the deposited data

How the results depend on the processing

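The calls on single loci rest on few reads. With a minimum of 20 reads, 1 member in place of 2 passed in each library, and with at least 20 reads over both libraries 1 member in place of 3 was 2-fold apart, since fewer loci were counted. The summed level was 20.98 CPM with all reads of a library as denominator and 69.5 CPM with both strands counted together, in place of 63.3 CPM, because the total changes. With a minimum of 5 reads, or with replicate 1 alone, 3 members passed. Of the 18 alternatives for summary values that used both libraries, the other 14 moved counts by at most 1.5 times and levels by less than 1 SD. For single loci, 36 of 40 such alternatives stayed within the SD of a mean or the counting interval of a ratio, and the other 4 were mean levels of Mir344b, Mir344c, Mir344g and Mir344f with all reads as denominator. With 2 libraries, leaving out either one moves a mean by a fixed part of its SD and shows nothing about stability: without 1 library the family sum was 59.2 or 67.4 CPM, the share of Mir344b 70.2% or 91.6%, and the level of Mir344d-3 0.225 or 4.20 CPM. No log2 ratio changed sign, and that of Mir344d-3 ranged from 2.58 to 3.63. A change of scaling shifts the ratios of all genes by about the same amount, so the unchanged signs show little about stability. Depth limits the low loci: the single read of Mir344d-3 in replicate 2 has a 95% exact Poisson interval of 0.00571 to 1.26 CPM.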

Other observations

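Reads on the strand opposite to a member were seen only at Mir344b, where replicate 2 had 3 and replicate 1 none, beside 274 and 99 reads on its own strand. No annotated miRNA gene lies on the other strand there. The predicted folds of the 10 hairpins did not separate read from unread loci. The lowest free energy was -56.8 kcal/mol, at the unread Mir344, and the highest -32.9 kcal/mol, at the unread Mir344d-1. Mir344b was at -34.4 and Mir344g at -43.5 kcal/mol. The hairpins differ in length, and Mir344 has 95 bases. Per base, the extremes were at read loci, -0.613 kcal/mol for Mir344g and -0.378 kcal/mol for Mir344c.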
